A study of Macaca mulatta with 10 samples.

Results

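Mitosis and G2/M genes encode the proteins that carry a cell from the end of DNA replication through chromosome segregation and cytokinesis. The set was given as a list of 47 gene symbols, and 44 of them had a row in the authors' table of 18622 gene symbols. ECT2, NCAPG and NCAPH were not analysed here. Lymph node RNA from male rhesus macaques (Macaca mulatta) was read on Human Ref 8 v 3.0 bead arrays, 1 array per animal, in 5 animals under unstable and 5 animals under stable social conditions. Unstable animals 1, 2 and 3 had age labels of 6.84, 6.72 and 6.7, and unstable animals 4 and 5 of 5.62 and 5.61. The stable animals had age labels between 5.73 and 5.87, and the unit is not stated. The labels give no other treatment, and do not say which node was taken. Expression is given throughout as log2 of the authors' normalized signal, so a difference of 1 is a doubling.

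Entry into mitosis is driven by cyclin-dependent kinase 1 bound to cyclin B, and anaphase starts when the anaphase promoting complex, switched on by CDC20, has securin and cyclin B destroyed. Many of these genes are transcribed together late in the cell cycle through the factors FOXM1 and B-MYB and stay low in resting cells. Most lymphocytes of a resting node are not dividing, and the dividing ones are found mainly among germinal centre B cells and recently activated lymphocytes. In whole-node RNA, fewer cells of a type and less RNA per cell cannot be told apart.

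The arrays lay on 3 slides, by their identifiers in the labels. Unstable animals 1, 2 and 3 shared slide 1 with stable animal 5, unstable animals 4 and 5 were alone on slide 3, and stable animals 1 to 4 were alone on slide 2. Slide and age label therefore cannot be fully told apart from social condition. Median probe intensity was 104 to 119 in the unstable and 106 to 114 in the stable animals, and 41.2% to 41.8% of genes were above background on an array. A gene counted as above background when it exceeded the array's most common signal by 3 SDs of the values below it. Unstable animal 4 and stable animal 2 had the lowest mean correlation with the other arrays, at 0.983 and 0.984, against 0.986 to 0.989 elsewhere. Lymphocyte markers were present, with the B cell gene CD79B averaging 12.34 and the T cell genes CD3D and CD2 averaging 12.17 and 10.71 over the 10 animals. MS4A1, the gene of CD20, averaged 6.7 and was above background on 0 arrays. Of the 44 measured members, 34 were above background on 3 or more arrays, 23 on all 10 and 8 on none.

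The comparison asks whether lymph node expression differs between animals in unstable and stable social conditions. No single member passed a limma test adjusted over all 18622 genes, where 0 genes passed (0.0%) and 956 had an unadjusted p under 0.05. The smallest adjusted p of a member was 0.892. As a group, 40 of the 44 members had a higher mean in unstable animals, where 48.9% of all genes did. The members were chosen with earlier results of these data known. They also tended to be high or low in the same animals, so this count does not stand for 44 independent results. The median difference over the members was 0.102, against -0.002 over all genes. Unadjusted p-values under 0.05 were found for 5 members, all higher in unstable animals, where 5.13% of all genes had such a p and 2.41% had one with the higher mean in unstable animals. These genes were CKS1B, HMGB2, STMN1, CDC2 and CCNB2.

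The higher group mean did not come from all unstable animals alike. The mean over the 44 members was 7.50, 7.38, 7.75, 7.62 and 7.88 in unstable animals 1 to 5, against 7.56, 7.42, 7.44, 7.52 and 7.48 in stable animals 1 to 5. Unstable animals 3, 4 and 5 were therefore above every stable animal, unstable animal 1 lay within the stable range, and unstable animal 2 was the lowest of the 10. Unstable animal 5 exceeded every stable animal in 42 of 44 members, where it did so in 2982 of all genes (16%). The same count was 34 for unstable animal 3 (14.1% of all genes), 24 for unstable animal 4 (16.4%), 9 for unstable animal 1 (14.8%) and 2 for unstable animal 2 (14.4%).

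**Figure D1:**
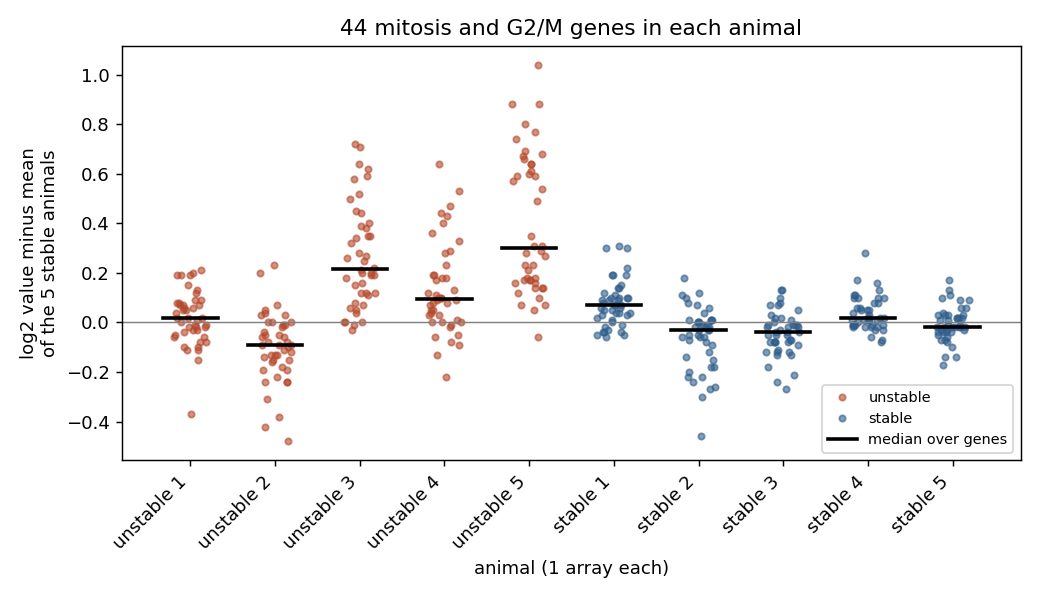
Log2 value of each of the 44 mitosis and G2/M genes minus its mean over the 5 stable animals (vertical axis), by animal, with unstable animals in red and stable animals in blue. Each point is 1 gene and each black bar the median over the genes, which lies at 0.30 in unstable animal 5, 0.22 in unstable animal 3, 0.10 in unstable animal 4, 0.02 in unstable animal 1 and -0.09 in unstable animal 2.

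Unstable animal 5 was the highest of all 10 animals for 35 of the 44 members, where it was the highest for 10.2% of all genes. Unstable animals 3, 4 and 5 together were the 3 highest animals for 20 members, against 1.03% of all genes. These 20 genes came from 7 of the 8 roles described below, with none from the kinetochore: CCNA2, CCNB2, CDC2, CKS2 and PLK1 of mitotic entry, CDC20, CDCA5 and CDCA3 of anaphase and cohesion, BUB1 and TTK of the checkpoint, AURKA, AURKB, BIRC5 and CDCA8 of the passenger group, KIF2C and STMN1 of the spindle, PRC1 and RACGAP1 of the midzone, and TOP2A and SMC4 of chromosome structure. At the other end, unstable animal 2 was the lowest of all animals for 17 members, where it was the lowest for 9.32% of all genes. These patterns were picked out after the values were seen and are given as a description.

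Given these patterns, the unstable animals were also more spread than the stable ones. They lay on slides 1 and 3 with age labels from 5.61 to 6.84, while stable animals 1 to 4 shared slide 2. The part of slide and age label in the spread was not tested. The SD between animals was larger in the unstable group for 41 of the 44 members, where this was so for 44.9% of all genes. The median SD over the members was 0.16 in unstable and 0.0794 in stable animals, whereas over all genes it was 0.0719 in unstable and 0.0772 in stable animals. For 1 member, CKS1B, every unstable animal lay above every stable animal, which was so for 0.322% of all genes.

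The slides divide this pattern. On slide 1, the only slide with both groups, unstable animal 3 was above unstable animals 1 and 2 and stable animal 5 for 36 of 44 members, where this was so for 23.0% of all genes. Those 3 unstable animals shared the slide and had age labels within 6.7 to 6.84. Within slide 1, 32 of 44 members had a higher mean in unstable animals, against 50.8% of all genes, and the median difference was 0.069 with 1 stable animal. On that slide 2 members had an unadjusted limma p under 0.05, where 5.75% of all genes did. Without the 3 unstable animals of higher age label, the fit sets unstable animals 4 and 5, both on slide 3, against 5 stable animals. Then 43 members were higher in unstable animals, the median difference was 0.184, and 26 members had an unadjusted limma p under 0.05, where 5.34% of all genes did. No member passed the adjusted threshold in either fit.

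**Figure D2:**
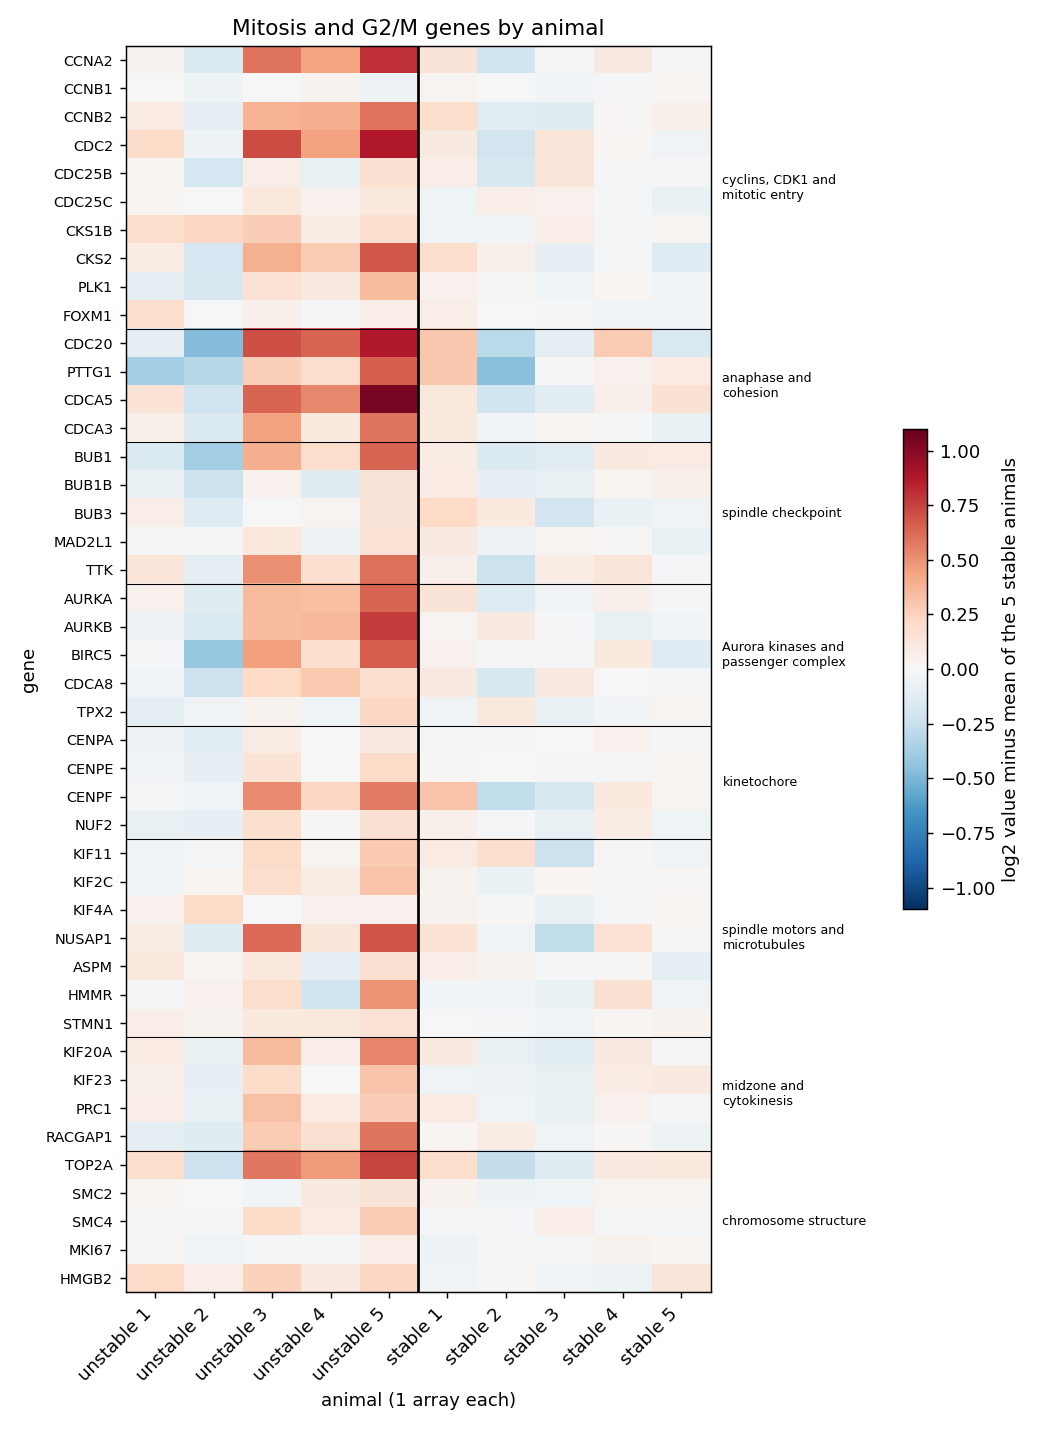
Log2 value minus the mean of the 5 stable animals, as colour, for each of the 44 genes (rows, grouped by role) in each animal (columns, unstable left of the black line, stable right of it). The columns of unstable animals 3 and 5 are red through most roles and that of unstable animal 2 is mostly blue. Unstable animal 4 is red mainly in mitotic entry, anaphase and cohesion, the passenger group and chromosome structure, and paler in the other roles. MKI67 and CCNB1 are pale in all animals.

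Cyclins, CDK1 and other genes of mitotic entry had 10 members, of which 8 had higher means in unstable animals, with a median difference of 0.13. CDC2, the older symbol of CDK1, the kinase that starts mitosis, had the largest difference of all members. It stood at 8.05, 7.79, 8.58, 8.29 and 8.74 in unstable animals 1 to 5, against 7.96, 7.65, 7.98, 7.87 and 7.81 in stable animals 1 to 5. Unstable animals 1, 3, 4 and 5 were above all stable animals and unstable animal 2 was not. The difference was 0.44 (SE 0.16, limma p = 0.0209, adjusted p = 0.942), a 1.35-fold higher signal, and the exact permutation test over the 252 regroupings gave p = 0.0556 (two-sided). Unstable animal 5 alone was 1.85-fold above the stable mean. Within slide 1 the CDC2 difference was 0.33 and its unadjusted limma p was above 0.05 (adjusted p = 0.904), and without the 3 unstable animals of higher age label it was 0.66.

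CCNB2, cyclin B2, a partner of CDK1, stood at 7.33, 7.15, 7.62, 7.64 and 7.85 in unstable animals, against 7.43, 7.12, 7.11, 7.26 and 7.30 in stable animals. Unstable animals 3, 4 and 5 exceeded all stable animals. The difference was 0.27 (SE 0.122, limma p = 0.0472, adjusted p = 0.942), and the exact permutation p was 0.0794. Within slide 1 the CCNB2 difference was 0.0677 and its unadjusted limma p was above 0.05 (adjusted p = 0.967), and without the 3 unstable animals of higher age label it was 0.50. CCNA2, cyclin A2, which acts from S phase into early mitosis, differed by 0.34 (SE 0.164, limma adjusted p = 0.942) and showed the same 3 highest animals. CCNB1, cyclin B1, the main mitotic cyclin, was at 6.58, 6.52, 6.58, 6.62 and 6.52 in unstable animals, against 6.61, 6.58, 6.55, 6.55 and 6.59 in stable animals. CCNB1 was above background on 0 arrays, so its values say little about its transcript.

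CKS1B and CKS2 encode small subunits that bind cyclin-dependent kinases. CKS1B was the member with the smallest p in the fit as reported. It stood at 10.25, 10.29, 10.33, 10.14 and 10.24 in unstable animals, against 10.01, 10.03, 10.13, 10.04 and 10.09 in stable animals, so that the groups did not overlap, with a narrow gap between unstable animal 4 and stable animal 3. Unstable animal 2, the lowest animal for many members, had the second highest CKS1B value. The difference was 0.19 (SE 0.0399, limma p = 0.000657, adjusted p = 0.892), and the exact permutation p of 0.00794 is the smallest that 5 against 5 animals allow. With the trend and robust settings of eBayes the CKS1B limma p was 0.0219 (SE 0.0743), against 0.00662 for HMGB2 and 0.0142 for CDC2. With normexp background correction the CKS1B limma p was 0.0459, against 0.00804 for HMGB2 and 0.0113 for CDC2. Within slide 1 the CKS1B difference was 0.20 and its unadjusted limma p stayed under 0.05 (adjusted p = 0.836). CKS2 stood at 10.60, 10.33, 10.92, 10.81 and 11.20 in unstable animals, against 10.71, 10.58, 10.43, 10.51 and 10.38 in stable animals, a difference of 0.25 (SE 0.14, limma adjusted p = 0.945) over all slides and 0.48 without the 3 unstable animals of higher age label. In CKS2 the usual 3 unstable animals were highest and unstable animal 2 was lowest of all.

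PLK1, a kinase that acts at mitotic entry, the spindle and cytokinesis, was at 7.44, 7.36, 7.70, 7.64 and 7.89 in unstable animals, against 7.59, 7.54, 7.48, 7.55 and 7.51 in stable animals. Unstable animals 1 and 2 were below all stable animals and the other 3 above all of them, so that the group means differed by 0.0687 (SE 0.0871, limma adjusted p = 0.973). The PLK1 difference was -0.0117 within slide 1 and 0.23 without the 3 unstable animals of higher age label. CDC25B and CDC25C, phosphatases that activate CDK1, differed by -0.0042 and 0.0623, and FOXM1, which drives transcription of many of these genes, by 0.0612. FOXM1 and CDC25C were above background on 0 arrays.

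Genes of anaphase and cohesion include the largest deviations in single animals. All 4 had higher means in unstable animals, with a median difference of 0.269, and their mean was 8.72, 8.49, 9.30, 9.15 and 9.57 in unstable animals 1 to 5, against 8.99, 8.53, 8.73, 8.88 and 8.79 in stable animals 1 to 5. CDC20, the activator of the anaphase promoting complex, stood at 9.60, 9.24, 10.42, 10.35 and 10.59 in unstable animals, against 10.01, 9.42, 9.60, 10 and 9.54 in stable animals. It was lowest of all in unstable animal 2 and highest in unstable animal 5, and the group difference of 0.33 had an SE of 0.255 (limma adjusted p = 0.95). For CDC20 it was 0.21 within slide 1 and 0.76 without the 3 unstable animals of higher age label. CDCA5, sororin, which holds sister chromatids together, differed by 0.43 (SE 0.201, limma adjusted p = 0.942) and was 2.06-fold above the stable mean in unstable animal 5, the largest deviation of any member in any animal. CDCA3, which promotes mitotic entry but was counted among these 4 genes, differed by 0.21 (SE 0.123). PTTG1, securin, the inhibitor of separase, differed by 0.0843 (SE 0.201). For PTTG1, unstable animals 1 and 2 were at -0.37 and -0.31 and stable animal 2 at -0.46 from the stable mean.

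Of the 5 spindle checkpoint genes, whose products hold back anaphase until all chromosomes are attached, 4 had higher means in unstable animals, with a median difference of 0.0398 at MAD2L1, which was above background on 0 arrays. The kinases TTK and BUB1 differed by 0.26 (SE 0.13) and 0.14 (SE 0.169), each highest in unstable animal 5. BUB1B, the checkpoint protein BubR1, was at 6.97, 6.80, 7.09, 6.91 and 7.18 in unstable animals, against 7.13, 6.95, 6.96, 7.07 and 7.11 in stable animals. Its difference of -0.0544 (SE 0.0709, limma adjusted p = 0.973) was the lowest of all members, although unstable animal 5 was again the highest animal, and it was -0.15 within slide 1. BUB3, which targets the Bub kinases to kinetochores and had the strongest signal of the 5, was at 8.95, 8.74, 8.88, 8.92 and 9.03 in unstable animals, against 9.11, 8.99, 8.67, 8.81 and 8.84 in stable animals. The groups of BUB3 overlapped throughout, with a difference of 0.0195 (SE 0.0806), and a stable animal was the highest.

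The Aurora kinases and the chromosomal passenger complex, which correct faulty attachments and direct cytokinesis, had higher means in unstable animals for 5 of 5 genes, with a median difference of 0.172. AURKB, the kinase of the complex, stood at 7.48, 7.40, 7.89, 7.90 and 8.32 in unstable animals, against 7.58, 7.65, 7.52, 7.47 and 7.52 in stable animals. Unstable animal 2 was below all stable animals, unstable animal 1 close to the lowest of them and the other 3 above them all, with a difference of 0.25 (SE 0.148, limma adjusted p = 0.945). For AURKB it was 0.0734 within slide 1 and 0.56 without the 3 unstable animals of higher age label. AURKA, which builds the spindle poles, differed by 0.25 (SE 0.126), BIRC5, survivin, by 0.17 (SE 0.17), CDCA8, borealin, by 0.084 (SE 0.0989) and TPX2, the activator of AURKA, by 0.0159 (SE 0.0636). TPX2 was above background on 1 array.

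All 4 kinetochore genes had higher means in unstable animals, but 3 of the differences were under 0.05. CENPF, a large protein of the outer kinetochore, stood at 7.74, 7.70, 8.27, 7.99 and 8.33 in unstable animals, against 8.06, 7.48, 7.57, 7.86 and 7.78 in stable animals. Unstable animals 3 and 5 exceeded all stable animals, while stable animal 1 was above unstable animal 4, and the difference was 0.25 (SE 0.147, limma adjusted p = 0.945) over all slides, 0.12 within slide 1 and 0.40 without the 3 unstable animals of higher age label. CENPA, the histone variant that marks centromeres, CENPE, a kinetochore motor, and NUF2, a subunit of the microtubule-binding NDC80 complex, differed by 0.00068, 0.0479 and 0.0401.

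Among spindle motors and microtubule proteins, 7 of 7 had higher means in unstable animals, with a median difference of 0.098. NUSAP1, which bundles spindle microtubules, stood at 7.58, 7.37, 8.12, 7.63 and 8.18 in unstable animals, against 7.65, 7.44, 7.22, 7.66 and 7.50 in stable animals. Unstable animals 3 and 5 were well above all others, unstable animal 4 was not, and the difference was 0.28 (SE 0.157, limma adjusted p = 0.945) over all slides and 0.18 within slide 1. STMN1, stathmin, which destabilizes microtubules, was at 6.88, 6.85, 6.93, 6.94 and 6.98 in unstable animals, against 6.82, 6.81, 6.78, 6.83 and 6.85 in stable animals. Unstable animal 2 was level with stable animal 5, and the other 4 were above all stable animals. Its difference of 0.10 (SE 0.0313, limma p = 0.00975, adjusted p = 0.918, exact permutation p = 0.0159) lay near background, since STMN1 was above it on 3 arrays. Within slide 1 the STMN1 difference was 0.0351 and its unadjusted limma p was above 0.05 (adjusted p = 0.952). The kinesins KIF11, KIF2C and KIF4A differed by 0.10, 0.12 and 0.0701, and ASPM and HMMR, which act at spindle poles, by 0.0711 and 0.10. KIF4A and ASPM were above background on 0 arrays.

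The 4 measured genes of the midzone and cytokinesis, the stage at which the cell divides in 2, all had higher means in unstable animals, with a median difference of 0.148. RACGAP1, part of the centralspindlin complex with KIF23, stood at 7.57, 7.55, 7.96, 7.85 and 8.27 in unstable animals, against 7.70, 7.76, 7.63, 7.69 and 7.62 in stable animals. Unstable animals 1 and 2 were below all stable animals and the other 3 above them, with a difference of 0.16 (SE 0.121, limma adjusted p = 0.945) over all slides, 0.0788 within slide 1 and 0.38 without the 3 unstable animals of higher age label. KIF20A, a midzone kinesin, differed by 0.20 (SE 0.108), KIF23 by 0.0939 (SE 0.0731) and PRC1, which crosslinks midzone microtubules, by 0.13 (SE 0.0722).

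Chromosome structure genes had 5 measured members, 4 of them with higher means in unstable animals. TOP2A, the topoisomerase that untangles sister chromatids, stood at 8.86, 8.43, 9.25, 9.13 and 9.41 in unstable animals, against 8.86, 8.41, 8.53, 8.77 and 8.78 in stable animals. The 3 highest animals were again unstable 3, 4 and 5, and the difference was 0.35 (SE 0.169, limma adjusted p = 0.942) over all slides, 0.0667 within slide 1 and 0.60 without the 3 unstable animals of higher age label. HMGB2, a chromatin protein of dividing cells, was at 7.16, 7.01, 7.19, 7.04 and 7.17 in unstable animals, against 6.91, 6.95, 6.90, 6.88 and 7.07 in stable animals. Like CKS1B, HMGB2 was shifted in unstable animals 1 and 2 as well, and it overlapped only with stable animal 5, with a difference of 0.17 (SE 0.0491, limma p = 0.00523, adjusted p = 0.918, exact permutation p = 0.0238) and of 0.049 within slide 1, where its unadjusted p was above 0.05 (adjusted p = 0.952). MKI67, the gene of the proliferation marker Ki-67, was at 6.62, 6.56, 6.60, 6.60 and 6.68 in unstable animals, against 6.55, 6.62, 6.60, 6.65 and 6.63 in stable animals. MKI67 was above background on 0 arrays, so these arrays hold no usable measure of it. The condensin genes SMC2 and SMC4, which compact chromosomes, differed by 0.0474 and 0.11, and SMC2 was above background on 0 arrays.

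**Figure D3:**
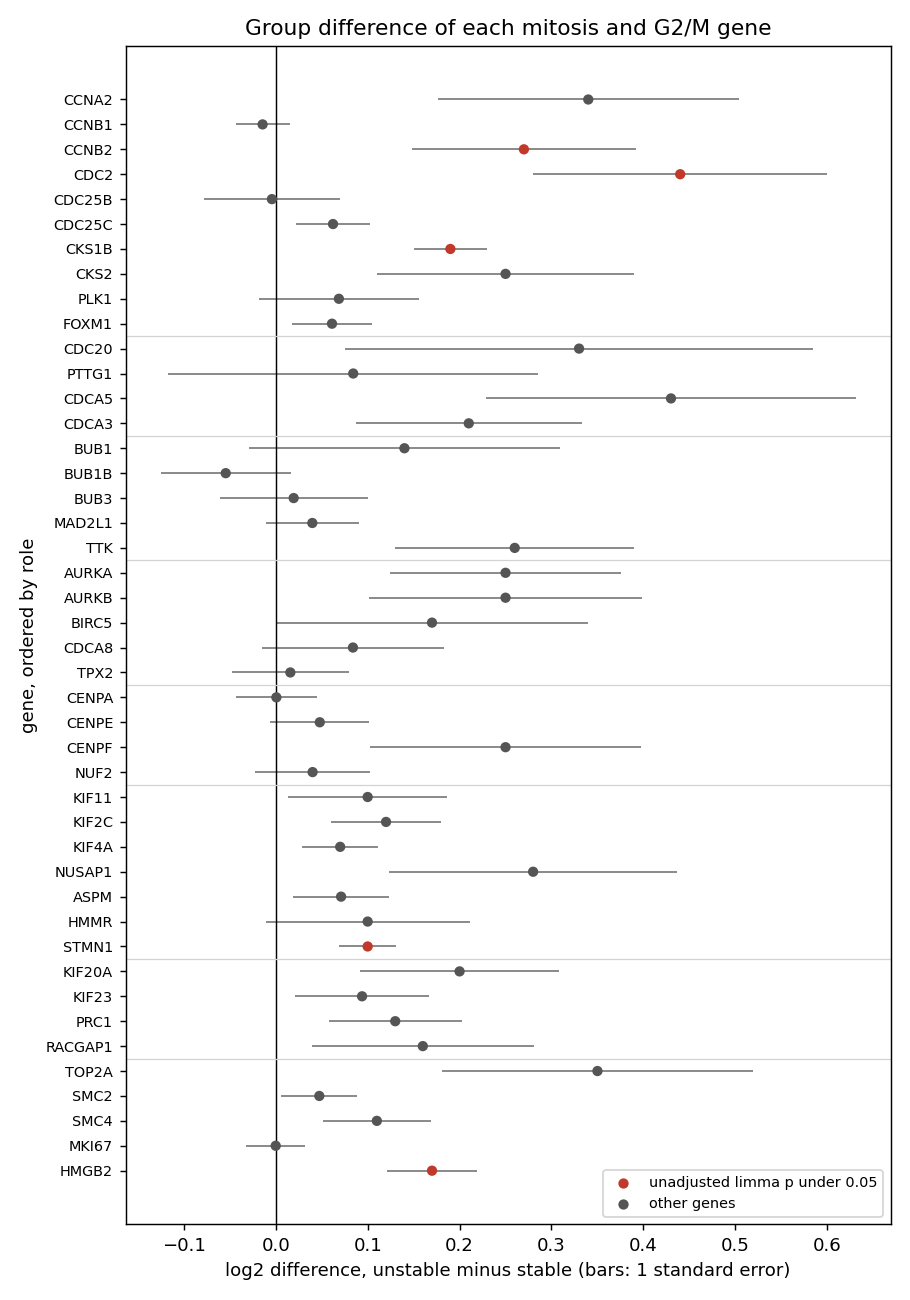
Log2 difference, unstable minus stable, of each of the 44 genes (rows, grouped by role as in the text), with bars of 1 standard error from limma. The 5 genes with an unadjusted p under 0.05 are in red, and CKS1B, STMN1 and HMGB2 among them have smaller differences and much shorter bars than CDC2.

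Strength of signal went along with the size of the difference. Signal depends on how well a human probe binds the macaque transcript as well as on its abundance, so it does not rank the genes by expression. Ordered by mean signal over all 10 arrays, the upper 22 members (7.24 to 10.64) had a median difference of 0.248 and 22 of them had higher means in unstable animals. The lower 22 members (6.57 to 7.14) had a median difference of 0.062, with 18 higher. The threshold for background was 6.89 to 6.9 on the arrays, so these lower members lay close to it or below it. The part of background in their smaller differences was not tested. Unstable animal 5 was the highest animal for 19 of the upper and 16 of the lower 22 members, and the 3 animals named above were the 3 highest for 17 and 3.

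For 11 members the authors' value equalled the mean of a pair of probes, which gave 2 readings of the same gene. The probes were paired with genes by numerical match alone. The probe of stronger signal had a higher mean in unstable animals for 11 of 11 genes and the other probe for 7, and the stronger probe had the larger difference for 9. For CDC2 the probes differed by 0.50 (SE 0.193) and 0.25 (SE 0.073), and both had an unadjusted limma p under 0.05. For AURKA they differed by 0.34 (SE 0.153) and 0.09 (SE 0.089). For BIRC5 the stronger probe was 0.95 above the stable mean in unstable animal 5 while the weaker one was at -0.07. The weaker BIRC5 probe averaged 6.59, close to the level of genes at background.

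**Figure D4:**
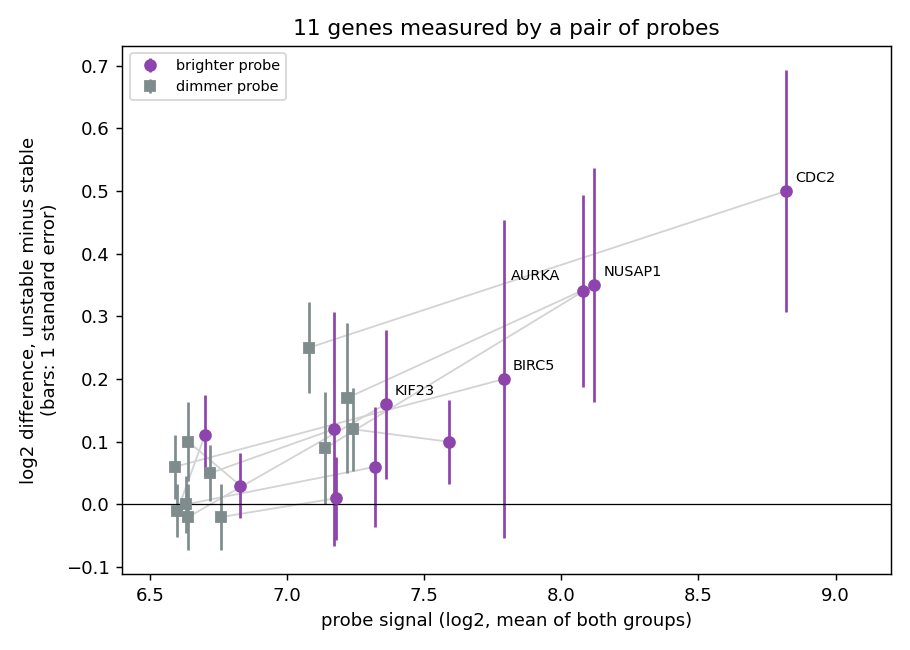
Log2 difference, unstable minus stable (vertical axis, bars of 1 standard error), against probe signal on the log2 scale (horizontal axis) for the 11 genes read by a pair of probes, with a grey line joining the probes of a gene. Probes with signal under 7 have differences of 0.11 or less, and the probes with the largest differences, those of CDC2, NUSAP1 and AURKA, have signals above 8.

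Genes of neighbouring processes were set beside the members by the same counts. Of 53 measured other mitosis genes, 35 had higher means in unstable animals, with a median difference of 0.031. Unadjusted p-values under 0.05 were found for 3 of them, close to the 5.13% of all genes. These were the kinesin KIF15, at 0.29 (SE 0.126), DLG7, the older symbol of the spindle protein DLGAP5, at 0.16 (SE 0.0714), and the centromere protein CENPM, at 0.24 (SE 0.107), none of which passed (limma adjusted p = 0.942). Unstable animal 5 was the highest animal for 26 of the 53. The list includes 21 genes above background on 0 arrays. Subunits of the anaphase promoting complex and cohesin, which most cells express whether or not they divide, were higher for 10 of 17, with a median difference of 0.009.

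DNA replication and G1/S genes, active one stage earlier in the cycle, were higher in unstable animals for 22 of 36, with a median difference of 0.023. Unadjusted p-values under 0.05 were found for 4 of them, all higher in unstable animals, where 2.41% of all genes had such a p. The 3 of smallest p were PRIM1, a DNA primase subunit, at 0.22 (SE 0.0696), RRM1, of ribonucleotide reductase, at 0.21 (SE 0.0755), and CCNE2, cyclin E2, at 0.16 (SE 0.0611). The mean over all 36 genes was 7.50, 7.49, 7.58, 7.55 and 7.66 in unstable animals 1 to 5. In stable animals 1 to 5 it was 7.57, 7.48, 7.49, 7.53 and 7.52. Unstable animals 5 and 3 were therefore highest here too, but unstable animal 4 lay within the stable range. Whether the mitosis genes differ from the replication genes in their group difference was not tested. Cell cycle inhibitors and quiescence genes had higher means in unstable animals for 6 of 22, with a median difference of -0.032. The 22 include MYBL2, the gene of B-MYB, which is not an inhibitor but a factor named above for transcription of mitosis genes. MYBL2 was at -0.09 and above background on 4 arrays. KLF2, a factor of resting lymphocytes, was at -0.22 (SE 0.102, limma adjusted p = 0.942) and the inhibitor gene CDKN2C at 0.22 (SE 0.129, limma adjusted p = 0.945).

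Markers of cell types also varied between animals, and their part in the result was not tested. Germinal centre B cell genes were higher in unstable animals for 14 of 15, with a list mean of 7.34, 7.26, 7.47, 7.39 and 7.45 in unstable animals 1 to 5, against 7.29 to 7.35 in stable animals. By this mean, unstable animals 3, 4 and 5 were above all stable animals and unstable animal 2 was lowest. Gene by gene, these 3 animals were the 3 highest for 2 of the 15, where this was so for 1.03% of all genes. Unstable animals 3 and 5 were the 2 highest for 7 of the 15 (2.27% of all genes). Unstable animal 3 was the highest for 6 (7.65% of all genes) and unstable animal 5 for 1 (10.2%). The median difference of the list was 0.037, and 6 of its genes were above background on 0 arrays. LRMP, a membrane protein of germinal centre B cells, was at 0.32 (SE 0.103, limma adjusted p = 0.928), EDG5, the older symbol of the receptor S1PR2, at -0.13 (SE 0.0422) with 0 arrays above background, and BCL6, the factor that defines the germinal centre, at 0.10. B cell, T cell and macrophage or dendritic cell lists followed other orders. Means were higher in unstable animals for 2 of 11 B cell genes, 5 of 12 T cell genes and 2 of 13 macrophage or dendritic cell genes. The T cell mean was 8.61 to 9.10 in unstable and 8.60 to 9.06 in stable animals, highest in unstable animal 1, and the B cell mean was 8.68 to 8.97 in unstable and 8.65 to 8.96 in stable animals. Macrophage and dendritic cell genes ranged over 8.45 to 8.78 in unstable and 8.35 to 9.02 in stable animals. Plasma cell genes, 1 of 9 with a higher mean in unstable animals, ranged over 8.73 to 8.83 in unstable and 8.58 to 9.18 in stable animals. Adipocyte genes, 7 of 11 higher, were highest in unstable animal 4 at 7.86, against 7.34 to 7.56 in the other unstable and 7.28 to 7.58 in stable animals. Erythroid genes, 2 of 12 higher, ranged over 7.37 to 7.58 in unstable and 7.52 to 7.71 in stable animals, and 8 of the 12 were above background on 0 arrays. The globin genes HBA2 and HBB were at -0.94 (SE 0.251, limma adjusted p = 0.918) and -0.83 (SE 0.228, limma adjusted p = 0.918). CD8 T and NK cell genes, 7 of 11 higher, ranged over 7.35 to 7.62 in unstable and 7.26 to 7.56 in stable animals, highest in unstable animal 2, and fibroblast and endothelial genes over 9.35 to 9.54 in unstable and 9.21 to 9.62 in stable animals.

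**Figure D5:**
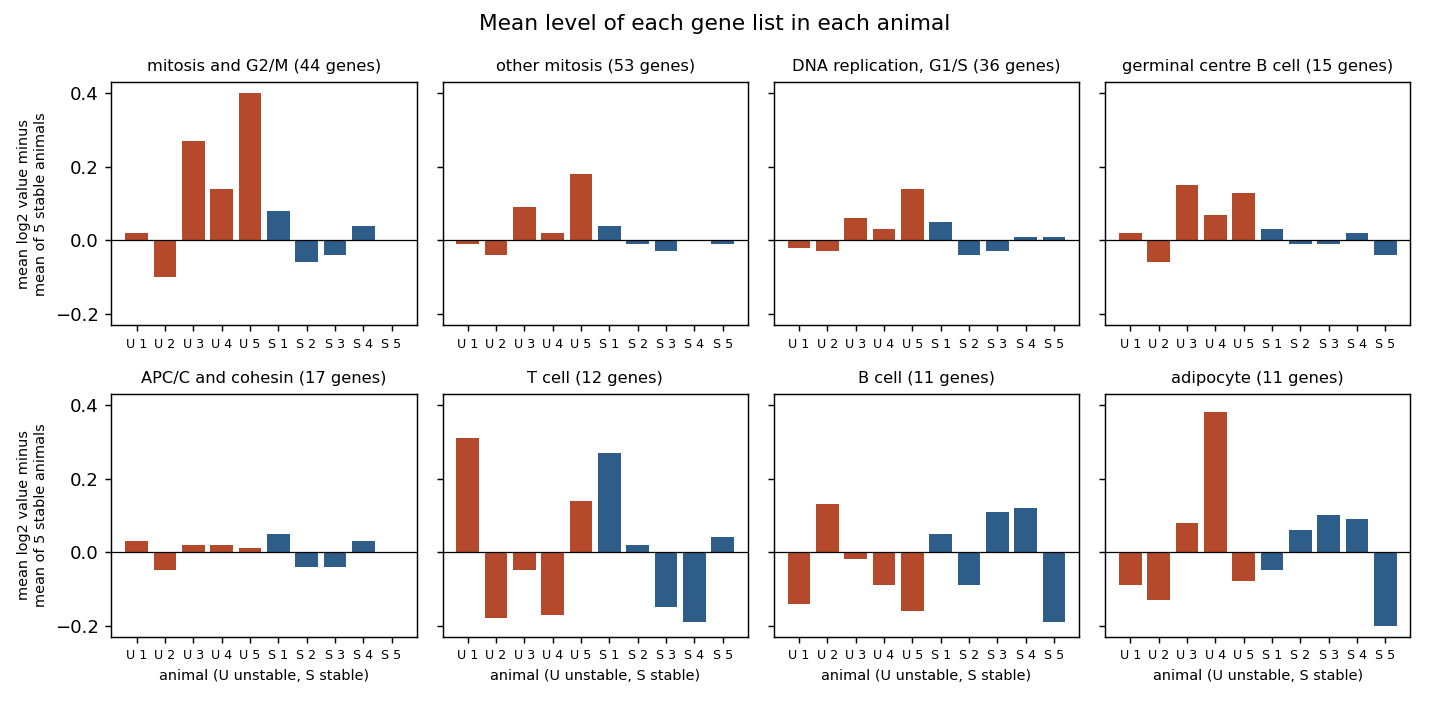
Mean log2 value of each gene list minus its mean over the 5 stable animals, in each animal (U unstable, S stable), for the mitosis and G2/M genes and 7 other lists. The bars of unstable animals 3, 4 and 5 stand above 0 for the mitosis, other mitosis, replication and germinal centre lists. For the anaphase promoting complex and cohesin list they also do, at 0.02, 0.02 and 0.01. There stable animal 1, at 0.05, is above all 3 of them. In the other mitosis list unstable animal 4, at 0.02, is below stable animal 1, at 0.04. In the replication list unstable animal 4, at 0.03, is below stable animal 1, at 0.05. The adipocyte list peaks in unstable animal 4 and the T cell list in unstable animal 1.

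The group difference of the members rested on few animals. Without unstable animal 5, 35 of 44 members still had higher means, where 48.9% of all genes did, but the median difference was 0.059. Without unstable animal 2, 19 members had an unadjusted limma p under 0.05, where 5.3% of all genes did. Without unstable animal 1 the count was 10 (4.65% of all genes) and without unstable animal 3 it was 3 (4.66%). With normexp background correction of the intensities, the median difference over the 41 matched members was 0.217 and that of HMGB2 was 0.36.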

How the data were processed

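Biotin-labelled cRNA from lymph node RNA of 10 animals was hybridised to bead arrays with human probes, per the labels' protocols. The authors deposited log2 values for 18622 gene symbols, nearly equal in distribution across arrays. They also deposited intensity values for 24526 probes, listed by probe identifier, with no normalization across arrays seen. The submitters' processing notes list GenomeStudio, and the normalization method is not given in the sources used here. Groups and replicate numbers came from the labels. The log2 gene table was tested as deposited by a group linear model in limma 3.58.1 (R 4.3.3), without covariates, using eBayes moderation, two-sided p-values and Benjamini-Hochberg adjustment over all genes at a threshold of 0.05. Standard errors are those of the moderated fit. Exact permutation tests used all 252 regroupings. The limma code was checked on simulated data.

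Intensities were matched to gene rows after quantile normalization to a target estimated from the log2 table, within 0.002 log2 units for 1 probe and 0.008 for the linear mean of 2. This matched 30 members to 1 probe and 11 to 2, and 3 were unmatched. Of 44 member symbols, 43 are symbols in a table of macaque genes and CDC2 is a synonym of CDK1 there. Sequence differences between human probes and macaque transcripts can lower signals, and variants under a probe can mimic a difference in expression. Members and lists were chosen with earlier results of these data known. Values in every animal are given for members with an unadjusted p under 0.05, the member of strongest signal in each role, and 7 set genes (MKI67, TOP2A, CCNB1, CDC2, PLK1, AURKB and BUB1B). Of other lists, up to 3 genes of smallest p are named, and further genes were named after their values were seen. A planned search of promoters was not run because no sequences were used here. Figures were drawn with matplotlib 3.10.9. Alternatives covered normalization, background, signal filters, slide, age label, replicate number, eBayes settings, array weights and each animal left out.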

Additional observations from a re-analysis of the deposited data

How the results depend on the processing

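The count of genes past the adjusted limma threshold was 0 in the analysis as reported and under 23 of 25 alternatives. It was 1 with slide as a fixed block (smallest adjusted p 0.0291) and 1 without the 3 unstable animals of higher age label, and in neither case was that gene a member. The number of members with an unadjusted p under 0.05, which was 5, moved most, and is given with the share of all genes in the same fit. It was 13 with median scaled intensities (6.64%) and 3 among genes above background on all 10 arrays (5.2%). With slide as a fixed block the count was 1 (4.4%), and without the unstable arrays of slide 3 it was 2 (4.45%). Only slide 1 holds both groups, so the fixed block gives the slide 1 differences, with stable animal 5 as the only stable animal. The count was 18 with the age label as a covariate (6.18%) and 26 without the 3 unstable animals of higher age label (5.34%). Age label differed mainly between unstable animals 1 to 3 and all others. Both of these group differences therefore rest largely on unstable animals 4 and 5 of slide 3. Leaving out single animals gave 3 (without unstable animal 3, 4.66%) to 19 (without unstable animal 2, 5.3%) such members, 35 to 42 members with a higher mean in unstable animals and a median difference of 0.059 to 0.152. The filter on all 10 arrays left 23 members, of which 23 had higher means in unstable animals, with a median of 0.248. Of the 5 members with an unadjusted p under 0.05, this filter removed STMN1 and HMGB2, which were above background on 3 and 8 arrays. CKS1B, CDC2 and CCNB2 kept an unadjusted limma p under 0.05. The cause of the other shifts was not tested.

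For the 17 members described animal by animal, 394 of 412 alternative values kept their direction. PLK1 turned to -0.0117 within slide 1, and so with slide as a fixed block, and to -0.037 without the unstable arrays of slide 3. With single animals left out, PLK1 ranged from -0.00247 (without unstable animal 5) to 0.13. BUB3 turned to -0.0259 without the unstable arrays of slide 3, to -0.0113 without unstable animal 5, and ranged from -0.0332 (without stable animal 3) to 0.0749 with single animals left out. BUB1B turned to 0.00157 without the 3 unstable animals of higher age label. MKI67, whose difference was near 0, turned to 0.00175 with slide as a random block, 0.0205 with the age label, 0.0282 without those 3 animals, 0.00558 without the 2 arrays of lowest mean correlation, an alternative chosen after seeing the data, and to between 0.00228 and 0.0132 without stable animals 2, 4 or 5 or unstable animals 2, 3 or 4, with -0.0167 as the lowest value with 1 animal left out.

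With the replicate number as a block, 9 members had an unadjusted limma p under 0.05 (4.99% of all genes), 40 had higher means in unstable animals and the median difference was 0.102. The numbers did not pair the animals, since deviations of same-numbered arrays correlated between -0.055 and 0.006 and 0 unstable arrays correlated best with their own number. With 5 animals a group, 3 slides that hardly cross the groups and 8 members above background on no array, the number of arrays and the signal over background limit the precision of every value.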
